A study of Mus musculus with 15 samples.

Results

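Macrophages treated with IL-4 together with IL-13 (M2 cells) were compared with untreated macrophages (M0 cells) across the genes on a microarray. The comparison used the 6 arrays whose titles name M2 cells with no further agent or M0 cells, 3 of each, out of 15 in the series. Cells of both groups came from mouse bone marrow and had been kept in M-CSF, the growth factor that turns marrow progenitors into macrophages, for 7 days. M2 cells then received IL-4 with IL-13, M0 cells received nothing, and neither group was given an agent. The other 9 arrays held M1 cells, which had received LPS with interferon-gamma, and M2 cells given nutlin-3a or 10058F4. They entered the estimate of the spread between arrays, and the M1 arrays also served to show where a level in M2 cells differed from that in M1 cells. The mouse strain, the cytokine doses and the duration of treatment were not stated in the labels. Replicates are called biological in the labels, but separate mice or separate cultures are not mentioned. The p-values therefore rest on differences between samples that may be technical. Each sample was RNA of a whole culture, in which fewer cells of a type and less RNA per cell cannot be told apart.

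IL-4 and IL-13 are cytokines of allergy, helminth infection and tissue repair, made by T helper type 2 cells and by several innate cells. IL-4 binds the chain IL-4Rα, which then pairs with the common gamma chain or with IL-13Rα1, and IL-13 binds IL-13Rα1 paired with IL-4Rα. The receptors carry JAK kinases, which phosphorylate the transcription factor STAT6, and SOCS proteins, themselves products of STAT target genes, dampen JAK signalling. Macrophages that receive these cytokines are known for arginase, chitinase-like and resistin-like proteins, mannose receptor and PD-1 ligand 2.

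Values are the authors' log2 expression of a probe set, a group of short probes that reads 1 transcript, after RMA normalization. One log2 unit stands for a 2-fold difference, all differences are M2 minus M0 unless stated, and each gene is read by its probe set with the highest mean. Levels are comparable between arrays and not between genes. Where the average of all probe sets of a called gene, or the probe sets that the array's naming marks as specific to it, moved its difference by over 1.5 times, that value is added as averaged or specific. Differences were tested with limma, with standard errors (SE) from its fit, and a gene was called at a Benjamini-Hochberg adjusted p under 0.05 over 13703 genes tested. Having 3 arrays per group limits the precision. Group means under the filter level, the 40th percentile of an array (4.34 to 4.44 on the M2 and M0 arrays), may be background signal, and fold sizes that involve them are not exact.

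Arrays of a group correlated across probe sets with r of 0.9962 to 0.9969 for M2 cells and 0.9956 to 0.9966 for M0 cells, against 0.9867 to 0.9892 between the groups. As a check of RNA integrity, the 3' control probe set of beta-actin exceeded the 5' one by 0.382 ± 0.0302 in M2 cells and 0.351 ± 0.0543 in M0 cells (SD, n = 3 each). Of the macrophage identity genes, 15 of 16 were above the filter level on all M2 arrays and 15 on all M0 arrays. Of the 16, 1 was higher and 6 were lower (6.25% and 37.5%, beside 12.7% and 18.4% of all genes), 3 by at least 2-fold. The lower ones included Mertk, Fcgr1, Cd14 and Maf, described below. The mean level of the list was 10.65 to 10.77 on M2 arrays and 10.898 to 11.025 on M0 arrays. Csf1r (0.10, adjusted p = 0.275), the receptor for M-CSF, Adgre1 (0.041, adjusted p = 0.647), a surface receptor of macrophages, Lyz2 (-0.01, adjusted p = 0.903) and Cd68 (-0.13, adjusted p = 0.187) were not called. The mean level of the dendritic cell markers was 6.85 to 6.98 on M2 arrays and 6.39 to 6.57 on M0 arrays, with Batf3 and Cd83 (0.99, SE 0.088) called higher, Irf8 (-0.27, SE 0.091) called lower (a call lost with any 1 of the 6 arrays left out), and 2 of 12 under the filter level on all 6 arrays. Markers of other cells called higher were 2 of 7 tested for T and NK cells, 2 of 5 for B cells and 2 of 9 for neutrophils. They were also 1 of 4 for mast cells, basophils and eosinophils and 1 of 8 for stromal and endothelial cells. For erythroid cells and megakaryocytes 0 of 7 were called higher, and 12.7% of all genes were. These small counts were not stable. Without M0 replicate 2, 1 each was higher for T and NK cells, B cells and neutrophils. With the filter at the 60th percentile, 0 were higher for B cells and for stromal and endothelial cells. With no filter, 3 were higher for the mast cell group. One each was called lower for T and NK cells, neutrophils, the mast cell group and the stromal and endothelial group. The part of these cells in the results was not tested. One array of M1 cells, replicate 2, stood apart from its group (r down to 0.9893) and widened the shared spread of some genes, which is stated for Fcgr2b and Ptpn6. The SE of a gene pools the spread of all groups. For Arg1 and Slc40a1 it also holds a wide spread between M1 arrays and is not the spread of M2 and M0 arrays alone.

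In all, 1735 genes were higher in M2 cells (12.7% of those tested) and 2518 were lower (18.4%), together 31%. Counts of list members below stand beside these shares. All lists were drawn up with earlier results of these data known, so their directions are no independent evidence. By at least 2-fold, 200 genes were higher (1.46%) and 219 lower (1.6%). With 1 probe set per gene, the sizes were not alike in both directions. At least 4-fold, 47 genes were higher and 11 lower, and at least 16-fold, 7 were higher and 0 lower. That probe set was picked on all 15 arrays, most of them of M2 cells. Averaging all probe sets shrank some rises (Rasgrp1 from 5.05 to 1.94, Socs2 from 4.42 to 1.74). It also shrank some falls (Sgms2 from -2.34 to -1.23, Nfkbiz from -2.03 to -1.22). Whether the imbalance in size depends on the pick was not tested. The 3 M2 arrays did not overlap with the 3 M0 arrays for 6470 genes (47.2%). The median difference over all genes tested was -0.004, and with each array centred on its median it was 0.081, which gave 2801 higher and 1791 lower genes. Higher genes made up 61% of calls after centring, against 40.8% before.

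**Figure D1:**
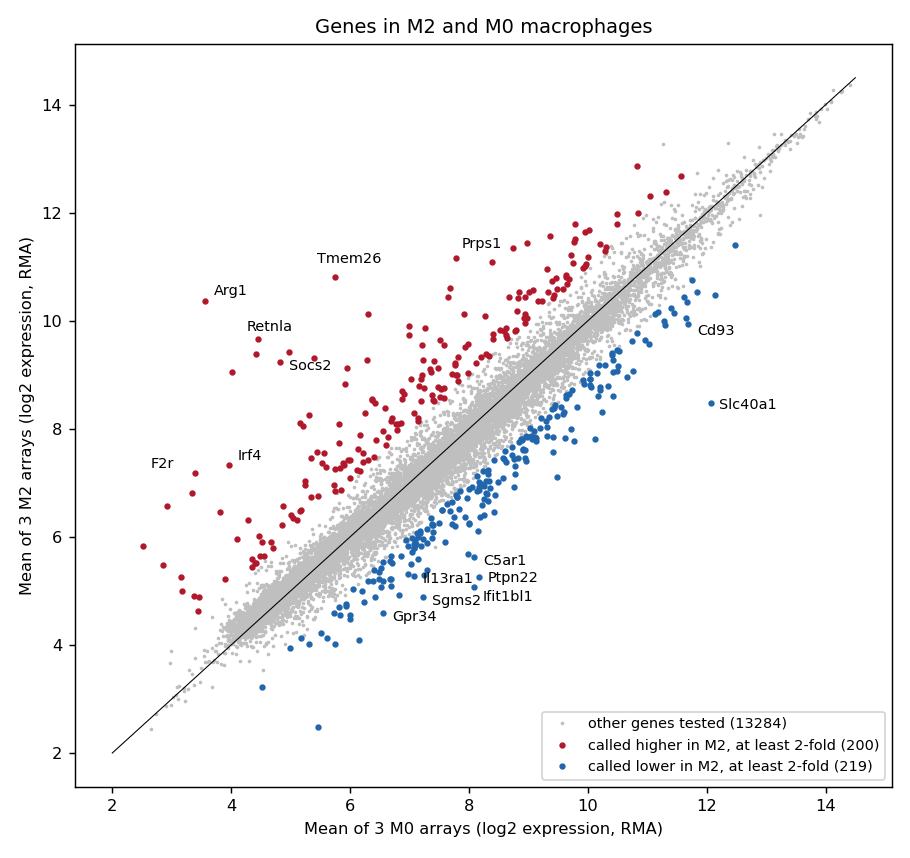
Mean log2 expression of each gene tested on 3 M2 arrays (vertical axis) and 3 M0 arrays (horizontal axis), with genes called at least 2-fold higher in M2 cells in red (200) and at least 2-fold lower in blue (219). The line marks equal levels, and the red points reach farther from it than the blue ones, up to Arg1 (6.81) above and Slc40a1 (-3.59) below.

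The largest rise was that of Arg1, arginase 1, which turns arginine into ornithine and urea. Its values were 9.93, 10.66 and 10.53 in M2 cells, against 3.86, 3.41 and 3.40 in M0 cells. No M0 array came near the M2 arrays, and all 3 M0 values lay under the filter level (log2 difference 6.81, SE 0.66, adjusted p = 2.74e-06). Retnla, a secreted resistin-like protein of type 2 immunity, had values of 9.87, 9.67 and 9.44 in M2 cells, against 4.56, 4.20 and 4.60 in M0 cells. The M2 values lay close together and far above all M0 values (log2 difference 5.21, SE 0.18, adjusted p = 1.1e-10). Tmem26, a membrane protein, was at 10.79, 10.77 and 10.89 in M2 cells, against 5.44, 5.94 and 5.87 in M0 cells, again without overlap (log2 difference 5.07, SE 0.17, adjusted p = 1.1e-10). The PD-1 ligand Pdcd1lg2, which restrains T cells, followed (4.97, SE 0.086), as did the chitinase-like protein Chil3 (4.44, SE 0.19), the endosomal protein Plekhf1 (3.92, SE 0.17) and the cationic amino acid transporter Slc7a2 (3.83, SE 0.16).

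Of the known IL-4 response markers, 18 of 25 rose and none fell by limma (0 at an unadjusted p under 0.05). Beyond these, the 25 largest rises were of several kinds. Prps1, which makes the sugar phosphate that nucleotide synthesis starts from, had values of 11.18, 11.16 and 11.13 in M2 cells, against 7.62, 7.98 and 7.75 in M0 cells, and its M0 values were tight and well above the filter level (log2 difference 3.37, SE 0.094, adjusted p = 1.59e-11). The guanine deaminase Gda (2.80, SE 0.22) and the zinc transporter Slc30a4 (2.92, SE 0.18) rose as well. Others were the brain-type sodium channel subunit Scn3a (3.31, SE 0.18), the small membrane protein stannin, Snn (3.18, SE 0.14, averaged 1.52), and the ribonuclease Rnase2a (3.46, SE 0.17). The remaining ones fall in the groups below.

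The windows of 250 bases upstream of the transcription start were searched for the letters TTCNNNNGAA, the spacing that STAT6 is known to prefer, which read the same on both strands. They occurred in 4 of 24 upstream windows (16.7%) found for 19 of the 25 largest rises, in 20 of 237 windows (8.44%) of genes higher by at least 2-fold, and in 4.7% of the windows of all genes tested. They also occurred in 3 of 29 windows (10.3%) found for 17 of the 25 largest falls, in 5.68% of those of genes lower by at least 2-fold, and in 4 of 33 windows (12.1%) of the interferon-stimulated genes called lower, so they were not particular to genes that rose. The match is a description of letters and not of binding. Shown are the 4 largest rises whose window holds it, 5′ to 3′ on the gene's strand, from RefSeq's GRCm38.p6 table, with the matched letters in capitals.
Retnla (chr16:48842439-48842498, plus strand): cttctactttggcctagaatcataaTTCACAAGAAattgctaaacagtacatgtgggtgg
Tmem26 (chr10:68723680-68723739, plus strand): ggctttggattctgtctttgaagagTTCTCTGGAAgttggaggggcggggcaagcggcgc
Pdcd1lg2 (chr19:29410812-29410871, plus strand): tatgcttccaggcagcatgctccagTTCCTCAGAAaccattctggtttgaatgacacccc
Plekhf1 (chr7:38228079-38228138, minus strand): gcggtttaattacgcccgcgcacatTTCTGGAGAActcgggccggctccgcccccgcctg

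Of the receptor chains, JAK kinases, STAT factors and nearby phosphatases, 4 of 17 genes tested were higher and 3 lower (23.5% and 17.6%, beside 12.7% and 18.4% of all genes), and 1 was lower under both other scalings. Il4ra, the chain shared by both cytokines, had values of 8.23, 8.30 and 8.25 in M2 cells, against 7.74, 7.74 and 7.74 in M0 cells. The groups did not overlap and the rise was small (log2 difference 0.52, SE 0.056, adjusted p = 7.73e-06). Il13ra1, the chain that binds IL-13, was at 5.47, 5.45 and 5.60 in M2 cells, against 7.31, 6.86 and 6.88 in M0 cells. All M2 values lay more than 1 log2 unit under all M0 values (log2 difference -1.51, SE 0.20, adjusted p = 4.41e-05). The decoy chain Il13ra2 was not called (0.29, adjusted p = 0.145).

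Among the kinases, Jak2, which IL-13Rα1-containing and many other cytokine receptors use, had values of 10.44, 10.45 and 10.45 in M2 cells, against 8.82, 8.61 and 8.59 in M0 cells. Its M2 arrays were almost identical and its groups far apart (log2 difference 1.78, SE 0.072, adjusted p = 5.71e-10). Jak1 (0.069, adjusted p = 0.447), Jak3 (0.20, adjusted p = 0.17) and Tyk2 (-0.0058, adjusted p = 0.963) were not called. Stat6, the main factor of the IL-4 response, was slightly lower, at 9.27, 9.27 and 9.36 in M2 cells, against 9.50, 9.50 and 9.46 in M0 cells (log2 difference -0.19, SE 0.068, adjusted p = 0.049). That call was lost under most alternatives, among them with any 1 of the 6 arrays left out. Stat5a (0.28, SE 0.076) and the JAK phosphatase Ptpn2 (0.47, SE 0.067, specific 0.77) were higher, and Stat3 (-0.12, adjusted p = 0.212), Ptpn6 (-0.21, adjusted p = 0.0987), Ptpn1 (0.054, adjusted p = 0.637) and Ptpn11 (-0.05, adjusted p = 0.637) were not called. Without M1 replicate 2, Ptpn6 was called lower (adjusted p = 0.0467 by limma). Stat5a lost its call without M2 replicate 3 (adjusted p 0.00468 to 0.0564 over all alternatives). Stat5b was lower (-0.23, SE 0.068), a call lost with the 6 arrays alone, under both other scalings, with the mean of all probe sets and without any 1 of 4 arrays.

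The SOCS proteins, inhibitors of JAK signalling, were split. Of 8 tested, 4 rose and 3 fell. Socs2 had values of 9.32, 9.14 and 9.24 in M2 cells, against 4.67, 5.05 and 4.74 in M0 cells, with a wide gap between the groups (log2 difference 4.42, SE 0.13, adjusted p = 1.68e-11, averaged 1.74). Socs1, which binds and blocks JAKs directly, was at 8.36, 8.17 and 8.26 in M2 cells, against 5.22, 5.37 and 5.35 in M0 cells (log2 difference 2.95, SE 0.079, adjusted p = 1.43e-11). The M2 values exceeded all M0 values by more than 2 log2 units. Cish, a STAT5 target that damps cytokine receptors, was at 8.09, 8.06 and 8.01 in M2 cells, against 5.33, 4.94 and 5.33 in M0 cells (log2 difference 2.85, SE 0.10, adjusted p = 2.05e-10), and Socs5 rose less (0.74, SE 0.083).

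Socs3, which curbs IL-6 family receptors, gave 5.41, 5.63 and 5.55 in M2 cells, against 5.31, 5.23 and 5.46 in M0 cells. Its groups overlapped and it was not called (0.20, adjusted p = 0.193). In M1 cells its level was 12.26 ± 0.11 (mean ± SD of 3 arrays, as for M1 values hereafter) (M2 minus M1 -6.73, adjusted p = 7.43e-15). The lower members Socs6 (-0.40, SE 0.057), Socs7 (-0.36, SE 0.067) and Socs4 (-0.30, SE 0.066) changed by less than 0.5, and Socs4 and Socs7 lost their calls with the mean of all probe sets.

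**Figure D2:**
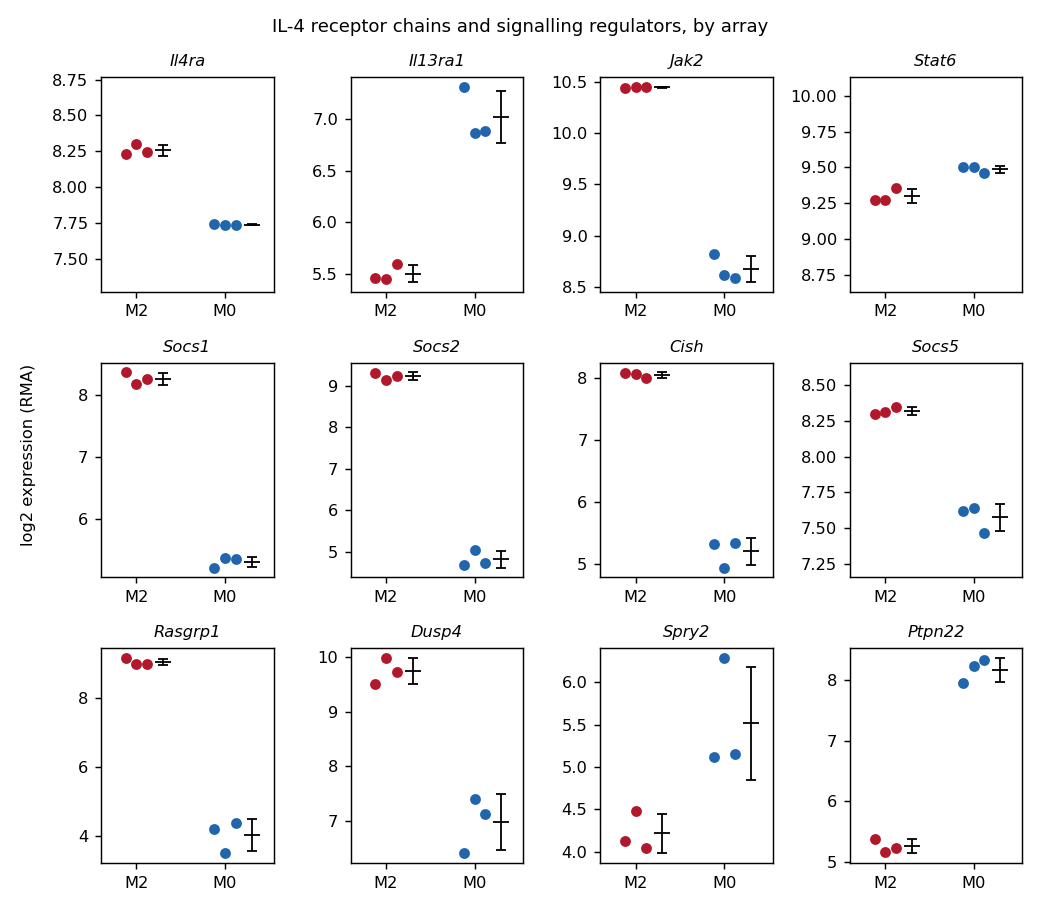
Log2 expression on each of 3 M2 arrays (red) and 3 M0 arrays (blue) of 12 receptor chains and signalling regulators, with the mean and SD beside the points, each panel on its own vertical scale. Jak2, Socs1, Socs2, Cish, Rasgrp1 and Dusp4 are higher in M2 cells without overlap, and Il13ra1, Spry2 and Ptpn22 lower. Of all genes tested, 47.2% did not overlap.

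Regulators of Ras and MAP kinase signalling moved in both directions. Rasgrp1, a diacylglycerol-activated exchange factor that loads Ras with GTP, had values of 9.17, 8.999 and 9.01 in M2 cells, against 4.20, 3.49 and 4.35 in M0 cells (log2 difference 5.05, SE 0.17, adjusted p = 1.09e-10, averaged 1.94). All M0 values lay under the filter level and all M2 values far above it. Its level in M1 cells was 8.90 ± 0.18, not called different from that in M2 cells (M2 minus M1 0.16, adjusted p = 0.411). The Ras inactivator Rasal3 (1.32, SE 0.11) rose as well.

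MAP kinase phosphatases and Sprouty proteins switch off ERK, JNK and p38 signalling. 4 of 16 were higher and 4 lower. The nuclear phosphatase Dusp4 was at 9.51, 9.98 and 9.73 in M2 cells, against 6.42, 7.41 and 7.13 in M0 cells, so every M2 array was above every M0 array by at least 2 log2 units (log2 difference 2.76, SE 0.24, adjusted p = 1.2e-06). Dusp2, another nuclear phosphatase, also rose (0.94, SE 0.23). Spry2, a feedback inhibitor of receptor tyrosine kinases, was at 4.13, 4.48 and 4.04 in M2 cells, against 5.11, 6.28 and 5.15 in M0 cells (log2 difference -1.30, SE 0.23, adjusted p = 0.000785, averaged -0.65). The fall held although 1 M0 array stood above the other two. Spred2 (-1.17, SE 0.22, averaged -0.35) and the JNK phosphatase Dusp16 (-0.85, SE 0.10, averaged -0.45) fell too. Of 9 Rgs proteins, which shorten signals from G protein-coupled receptors, 2 rose and 5 fell (22.2% and 55.6%, beside 12.7% and 18.4% of all genes). Only 1 rose without M2 replicate 3, M0 replicate 1 or M0 replicate 2, and with the mean of all probe sets. With specific probe sets 0 rose and 4 fell, but Rgs3, Rgs16 and Rgs19 had no value there. Rgs18 (-1.19, SE 0.16), Rgs1 (-0.98, SE 0.17) and Rgs2 (-0.72, SE 0.17) were lowest and Rgs3 (0.75, SE 0.11, averaged 0.39) highest.

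Ptpn22 is a tyrosine phosphatase that limits Src family kinases in T cells and takes part in Toll-like receptor signalling in myeloid cells. It was among the largest falls, at 5.38, 5.16 and 5.22 in M2 cells, against 7.95, 8.22 and 8.32 in M0 cells (log2 difference -2.91, SE 0.14, adjusted p = 2.71e-09). The 3 M2 values lay more than 2 log2 units under the 3 M0 values. Of the tyrosine and inositol phosphatases, 5 of 17 tested genes were higher and 7 lower, with a median log2 difference of -0.083. Inpp5a (1.41, SE 0.13), which ends inositol trisphosphate signals, and Ptpre (1.05, SE 0.10) rose, while Ptpn12 (-0.79, SE 0.069) and Ptprc (-0.62, SE 0.064, specific -0.32), which encodes CD45, fell. Rps6ka5, the kinase MSK1 that acts below p38 and ERK on chromatin, was lower as well (-1.95, SE 0.13).

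In the NF-κB group, 4 of 17 were higher and 3 lower. Nfkbiz, the nuclear cofactor needed for a secondary set of LPS-induced genes, was at 6.02, 6.40 and 5.92 in M2 cells, against 8.41, 8.07 and 7.97 in M0 cells (log2 difference -2.03, SE 0.21, adjusted p = 5.99e-06, averaged -1.22). It is the member with the largest change, and its groups did not overlap. The kinase Ikbke fell (-0.88, SE 0.12), and the subunit Rel (0.81, SE 0.13), the inhibitor Tnfaip3 (0.48, SE 0.10) and the inhibitor Nfkbia (0.34, SE 0.052) rose. Ikbkb was called lower (-0.36, SE 0.073), but its probe sets disagreed and their mean differed by 0.049.

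Transcription factors known from the IL-4 response were mostly higher: 13 of 21 rose and 1 fell, with a median of 0.81. The fall was that of Arid5b (-0.26, averaged -0.10). Its call was lost under both other scalings, with the mean of all probe sets and without any 1 M2 array, among others. The list was drawn up with earlier results of these data known, so its direction is no independent evidence. Irf4, a factor required for several M2 genes, was at 7.44, 7.18 and 7.37 in M2 cells, against 3.84, 4.12 and 3.91 in M0 cells (log2 difference 3.37, SE 0.091, adjusted p = 1.43e-11, averaged 2.12). All M0 values lay under the filter level and all M2 values far above it. Nfil3 (2.99, SE 0.11), Batf3 (2.90, SE 0.11), Egr2 (2.69, SE 0.10) and Klf4 (1.80, SE 0.14) followed. The Myc gene itself rose less (0.84, SE 0.15), and the histone demethylase Kdm6b (-0.047, adjusted p = 0.729) and the hypoxia factor Hif1a (0.045, adjusted p = 0.735) were not called.

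Interferon-stimulated genes were mostly lower: 34 of 42 were lower and 2 higher, with a median of -0.75 against -0.004 over all genes. Ifit3, which helps to bind and hold back viral RNA, was at 7.78, 7.55 and 8.08 in M2 cells, against 10.60, 9.83 and 9.94 in M0 cells (log2 difference -2.32, SE 0.20, adjusted p = 1.08e-06). All M2 values lay well under all M0 values. Ifit1bl1, a relative of Ifit1, was at 5.08, 4.88 and 5.26 in M2 cells, against 8.34, 7.80 and 8.11 in M0 cells (log2 difference -3.01, SE 0.19, adjusted p = 4.47e-08). Ifit family members are similar in sequence, and whether their probe sets read each other's transcripts was not tested. Cmpk2 (-1.95, SE 0.15), Ifit1 (-1.84, SE 0.18) and Ifit2 (-1.82, SE 0.21) also fell. In M1 cells Ifit3 reached 13.13 ± 0.09 (M2 minus M1 -5.33, adjusted p = 1.52e-11).

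The letters GAAANNGAAA, the core that interferon-activated factors are known to bind, were searched on both strands of the same windows. They occurred in 15 of 33 windows (45.5%) of 26 interferon-stimulated genes called lower, against 2.58% of the windows of all genes tested. Such letters are known to mark interferon-stimulated genes, which is how the list is defined, so the share says nothing of IL-4. The windows of the largest falls with a match are printed as above, with the match nearest the start, GAAANNGAAA or its reverse complement TTTCNNTTTC, in capitals. The stretch shown for Ifit1 holds a second match, left in lower case.
Ifit1bl1 (chr19:34602038-34602097, minus strand): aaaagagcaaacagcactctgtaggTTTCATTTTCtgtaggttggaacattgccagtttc
Ifit3 (chr19:34583382-34583441, plus strand): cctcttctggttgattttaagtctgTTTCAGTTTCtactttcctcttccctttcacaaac
Ifit1 (chr19:34640779-34640838, plus strand): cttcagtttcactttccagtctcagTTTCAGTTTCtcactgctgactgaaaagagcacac

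Some genes crossed from background to expression. A gene was counted as gained where it was called at least 2-fold higher, lay above the filter level on all M2 arrays and lay at or under it on all M0 arrays. Of the genes tested, 16 were gained (0.117%) and 5 lost by the reverse rule (0.0365%). The counts hang on the level chosen: 10 and 2 at the 30th percentile, and 22 and 12 at the 50th. Besides Arg1, Rasgrp1, Irf4, Scn3a and Rnase2a, the gained genes included the thrombin receptor F2r and the adhesion molecule E-cadherin, Cdh1. F2r had values of 7.21, 6.93 and 7.39 in M2 cells, against 3.16, 3.28 and 3.75 in M0 cells (log2 difference 3.78, SE 0.21, adjusted p = 1.67e-08), and Cdh1 of 6.54, 6.56 and 6.63 in M2 cells, against 2.39, 2.99 and 3.40 in M0 cells (log2 difference 3.65, SE 0.20, adjusted p = 1.3e-08). For both, every M0 array was under the filter level, and M1 cells were there too, with means of 3.31 ± 0.43 for F2r and 2.88 ± 0.36 for Cdh1.

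Pmepa1, a membrane protein that restrains TGF-beta signalling, was gained at 6.37, 6.64 and 6.38 in M2 cells, against 3.90, 3.79 and 3.77 in M0 cells (log2 difference 2.64, SE 0.12, adjusted p = 1.02e-09, averaged 1.30). Adipoq, the gene of the fat cell hormone adiponectin, was gained at 5.24, 5.30 and 5.90 in M2 cells, against 2.74, 2.95 and 2.85 in M0 cells (log2 difference 2.63, SE 0.19, adjusted p = 2.11e-07). Both had tight M0 values at background level. Olr1 (2.10, SE 0.23), the lectin-like receptor for oxidized LDL, and Mgl2 (1.85, SE 0.20), a galactose-binding lectin, crossed as well. Among the 5 lost genes, Zfand4 was at 4.01, 3.86 and 4.41 in M2 cells, against 6.08, 6.32 and 6.03 in M0 cells (log2 difference -2.05, SE 0.18, adjusted p = 1.18e-06), and Bank1, a scaffold of B cell receptor signalling, at 4.02, 4.07 and 3.95 in M2 cells, against 5.05, 5.94 and 6.23 in M0 cells (log2 difference -1.73, SE 0.26, adjusted p = 0.00017). The M0 values of Bank1 were spread, with replicate 1 lowest. Carmil1, a regulator of actin capping, was the smallest of the lost genes (-1.04, SE 0.21). In M1 cells the mean was 4.19 for Zfand4 (M2 minus M1 -0.09, adjusted p = 0.673 by limma). It was 4.34 for Bank1 (M2 minus M1 -0.33, adjusted p = 0.279), so neither was called different from M2 cells. Carmil1 was higher in M1 cells, at a mean of 4.88 (M2 minus M1 -0.93, adjusted p = 0.00109).

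The receptors through which macrophages sense their surroundings changed in both directions. Of the chemoattractant receptors, 1 of 18 tested genes was higher and 8 lower, with a median log2 difference of -0.19. C5ar1, the receptor for the complement fragment C5a, was at 5.51, 5.70 and 5.67 in M2 cells, against 7.85, 8.38 and 8.02 in M0 cells (log2 difference -2.46, SE 0.13, adjusted p = 8.8e-09). The M2 arrays were far under the M0 arrays, and both of its probe sets fell. Fpr2, a receptor for formyl peptides and lipid mediators, was at 6.94, 6.54 and 6.30 in M2 cells, against 8.52, 7.88 and 8.26 in M0 cells (log2 difference -1.63, SE 0.21, adjusted p = 4.45e-05). In M1 cells Fpr2 stood at 13.25 ± 0.11 (M2 minus M1 -6.66, adjusted p = 2.46e-12), and C5ar1 at 6.93 ± 0.17 (M2 minus M1 -1.31, adjusted p = 5.61e-07). The sphingosine phosphate receptor S1pr1 (-0.84, SE 0.18), the leukotriene receptor Cysltr1 (-0.67, SE 0.10) and the chemokine receptor Cxcr3 (-0.63, SE 0.14) fell less. Cysltr2 was called higher (0.46, SE 0.14), a call lost without M2 replicate 1 or M0 replicate 2 (adjusted p 0.00397 to 0.101 over the alternatives).

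Of the receptors for nucleotides, prostanoids, proteases and lipids, 6 of 31 were higher and 7 lower (19.4% and 22.6%, beside 12.7% and 18.4% of all genes). With arrays centred, 9 were higher and 6 lower. Ptgir, the prostacyclin receptor, was at 7.83, 7.91 and 7.91 in M2 cells, against 6.08, 6.17 and 6.26 in M0 cells (log2 difference 1.71, SE 0.11, adjusted p = 6.44e-08). The P2Y receptors split: P2ry1 (1.33, SE 0.10), a receptor for ADP, rose, while P2ry13 (-1.13, SE 0.22), another ADP receptor, and P2ry14 (-0.78, SE 0.11), a receptor for UDP-glucose, fell. Gpr34, a receptor for lysophosphatidylserine that is typical of microglia and tissue macrophages, was at 4.68, 4.75 and 4.33 in M2 cells, against 6.76, 6.69 and 6.23 in M0 cells (log2 difference -1.97, SE 0.17, adjusted p = 8.86e-07). Its M2 values came near the filter level. The oxysterol receptor Gpr183 (1.07, SE 0.21) and the fatty acid receptor Ffar4 (0.998, SE 0.20) were higher.

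Of the cytokine and growth factor receptors, 15 of 48 rose and 10 fell. Flt1, VEGF receptor 1, was at 8.27, 7.85 and 8.19 in M2 cells, against 5.29, 4.96 and 5.21 in M0 cells (log2 difference 2.95, SE 0.13, adjusted p = 9.41e-10), and all 4 of its probe sets rose. Il6st, the signal chain gp130 of IL-6 family receptors, was at 10.10, 10.15 and 10.31 in M2 cells, against 8.68, 8.79 and 8.94 in M0 cells (log2 difference 1.38, SE 0.21, adjusted p = 0.000196, averaged 0.89). Its M2 arrays all lay above its M0 arrays. Cd40 (1.51, SE 0.082), which takes signals from T cells, the IL-36 receptor chain Il1rl2 (1.39, SE 0.22, specific 0.67) and the IL-1 receptor Il1r1 (1.01, SE 0.11, averaged 0.53) rose too. Met, the receptor for hepatocyte growth factor, was at 5.75, 5.66 and 5.98 in M2 cells, against 7.15, 6.83 and 7.24 in M0 cells (log2 difference -1.28, SE 0.14, adjusted p = 7.58e-06, averaged -0.50). The IL-17 receptor chain Il17ra (-0.84, SE 0.11) and the chain Ifngr1 (-0.64, SE 0.056) of the interferon-gamma receptor fell.

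Sensors of microbes included falls and rises. Among Toll-like and other pattern recognition receptors, 4 of 26 tested genes were higher and 13 lower, with a median log2 difference of -0.30. Clec4e, the receptor Mincle for mycobacterial and fungal glycolipids, was at 7.35, 7.61 and 7.25 in M2 cells, against 8.88, 8.97 and 9.01 in M0 cells (log2 difference -1.55, SE 0.11, adjusted p = 2.32e-07). Tlr13, a mouse sensor of bacterial ribosomal RNA, was at 9.47, 9.64 and 9.59 in M2 cells, against 10.96, 11.11 and 11.04 in M0 cells (log2 difference -1.47, SE 0.064, adjusted p = 9.81e-10). Neither had overlapping groups. Tlr2 (-0.997, SE 0.094), which senses lipopeptides, the DNA sensor Aim2 (-0.99, SE 0.12) and Cd14 (-0.96, SE 0.14), which hands LPS to TLR4, fell by similar amounts. Tlr4 itself was not called (0.11, adjusted p = 0.269). The β-glucan receptor Clec7a (0.94, SE 0.14), the adaptor Sting1 (0.70, SE 0.13) and Tlr8 (0.57, SE 0.10) rose.

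Receptors for uptake were split. Mrc1, the mannose receptor, rose (2.03, SE 0.27), and the lectins Mgl2 and Clec10a (0.84, SE 0.17) rose with it. In the list of C-type lectins and Fc receptors, 7 of 29 rose and 7 fell, or 11 and 5 with arrays centred and 4 rises without M2 replicate 1 or M0 replicate 1. The lectin Clec4b1 (-1.25, SE 0.16) fell most. In the scavenger and apoptotic cell list, 5 of 30 tested genes were higher and 13 lower, with a median log2 difference of -0.22. Mertk, the kinase with which macrophages recognise dying cells, was at 8.86, 8.71 and 8.78 in M2 cells, against 10.28, 10.19 and 10.16 in M0 cells (log2 difference -1.43, SE 0.093, adjusted p = 6.61e-08). Its M2 values were tight and well under the M0 values. The collectin Colec12 (-1.11, SE 0.14), Stab1 (-0.86, SE 0.18) and the bridging ligand Gas6 (-0.70, SE 0.12) of Mertk fell as well. Itgb3 (1.83, SE 0.17, averaged 0.999) and Itgav (0.87, SE 0.11, averaged 0.37), which together form a vitronectin receptor, rose. Cd36 (-0.12, adjusted p = 0.401) and Cd163 (0.31, adjusted p = 0.158) were not called.

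Fc receptors showed one case in which another group set the call. Fcgr2b, the inhibitory receptor for IgG, was at 13.23, 13.40 and 13.18 in M2 cells, against 11.55, 11.19 and 11.08 in M0 cells. All 3 M2 arrays were far above all 3 M0 arrays, yet the gene was not called (log2 difference 1.99, SE 0.77, adjusted p = 0.0647). Its M1 arrays read 7.69, 11.61 and 7.06, and this gap within M1 cells entered the shared spread. Without M1 replicate 2 the adjusted p was 2.22e-07, and with the 6 M2 and M0 arrays alone it was 2.84e-05. Fcgr1, the high-affinity activating receptor, was at 9.69, 9.27 and 9.34 in M2 cells, against 10.70, 10.44 and 10.45 in M0 cells (log2 difference -1.10, SE 0.14, adjusted p = 5e-05), lower on every M2 array.

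**Figure D3:**
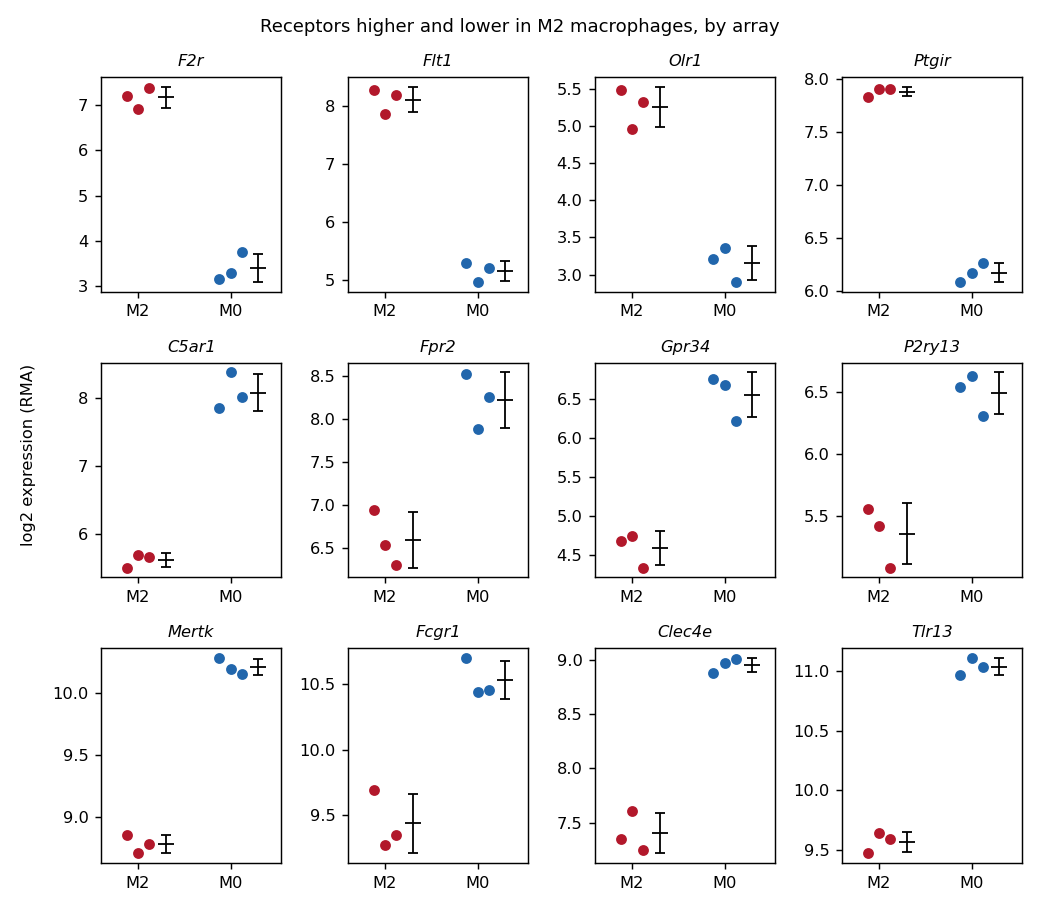
Log2 expression on each of 3 M2 arrays (red) and 3 M0 arrays (blue) of 12 receptors, with the mean and SD beside the points, each panel on its own vertical scale. The upper row holds receptors that rose (F2r, Flt1, Olr1, Ptgir) and the lower rows those that fell. In none of the 12 do the M2 and M0 arrays overlap, which was also so for 47.2% of all genes tested. Lack of overlap was part of the rule that picked the largest rises and falls.

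Ligands for T cells were also sorted. Cd86 (2.16, SE 0.15), which costimulates T cells, rose, Cd80 (-0.75, SE 0.12, averaged -0.38, specific -0.34), which binds the same receptors, fell, and the PD-1 ligand Cd274 (1.64, SE 0.069) rose beside Pdcd1lg2. In the costimulatory list 6 of 26 were higher and 9 lower. In M1 cells Cd86 was higher still, at 11.15 ± 0.23 (M2 minus M1 -2.63, adjusted p = 1.56e-09), and so was Cd274, at 13.16 ± 0.015 (M2 minus M1 -2.21, adjusted p = 2.03e-12). Pdcd1lg2 was the reverse, with 7.000 ± 0.11 in M1 cells (M2 minus M1 2.39, adjusted p = 9.33e-12). Over all genes, 64.7% were called between M2 and M1 cells, 36.5% higher and 28.1% lower in M2 cells. MHC class II genes had 1 called higher, H2-DMa (0.60, SE 0.13), and 1 lower of 12.

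Of the chemokines and cytokines, 7 of 37 rose and 7 fell (18.9% each, beside 12.7% and 18.4% of all genes), and 4 rose without M2 replicate 2. The eosinophil attractant Ccl24 was at 7.06, 7.06 and 6.99 in M2 cells, against 5.30, 4.83 and 5.58 in M0 cells (log2 difference 1.80, SE 0.15, adjusted p = 8.8e-07). Further CC chemokines that draw monocytes, Ccl12 (2.02, SE 0.27), Ccl8 (1.48, SE 0.10) and Ccl7 (1.42, SE 0.31), rose without overlap. The type 2 chemokines Ccl17 (0.13, adjusted p = 0.44) and Ccl22 (0.14, adjusted p = 0.328) were not called, nor were Il10 (0.18, adjusted p = 0.275) and Il1rn (0.044, adjusted p = 0.869). Il18 was at 7.43, 7.27 and 7.45 in M2 cells, against 8.70, 8.57 and 8.59 in M0 cells (log2 difference -1.24, SE 0.15, adjusted p = 2.81e-05), and Il15 (-0.97, SE 0.077) and Ccl3 (-0.96, SE 0.29) also fell. The call of Ccl3 ended without any 1 of 4 arrays (adjusted p 0.00176 to 0.0752 over the alternatives).

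Growth factors and matrix genes included both directions too. Pdgfa (1.77, SE 0.14) and Pdgfc (1.35, SE 0.13), which stimulate fibroblasts, rose, and Vegfa, the main factor of vessel growth, was at 4.91, 5.45 and 4.85 in M2 cells, against 6.52, 6.74 and 6.31 in M0 cells (log2 difference -1.45, SE 0.24, adjusted p = 0.000358, averaged -0.85). Its M2 values were all under its M0 values, while its receptor Flt1 was higher. Nrp1 (-1.17, SE 0.13), a coreceptor for VEGF, fell. Igf1 was called higher (0.61, SE 0.13), a call that ended with the mean of all its probe sets (0.58, adjusted p = 0.106 by limma) and with those specific by suffix (0.57, adjusted p = 0.291), at a difference about as large. Thbs1, thrombospondin, which binds matrix and activates TGF-beta, was at 5.64, 5.55 and 5.88 in M2 cells, against 7.85, 8.38 and 7.74 in M0 cells (log2 difference -2.30, SE 0.25, adjusted p = 8.61e-06). The urokinase receptor Plaur (-1.22, SE 0.11) and thrombomodulin, Thbd (-1.21, SE 0.092), fell, while coagulation factor X, F10 (1.45, SE 0.16), and the transglutaminase Tgm2 (0.97, SE 0.15) rose. Of the integrins and adhesion molecules, 8 of 27 rose and 7 fell. The integrin chains Itga4 (-1.49, SE 0.15, averaged -0.77) and Itga6 (-1.41, SE 0.12) fell, and the adhesion molecule Pecam1 (1.54, SE 0.17), known from endothelial cells, platelets and leukocytes, rose. The mean level of the stromal and endothelial marker list was 4.96 to 5.22 on M2 arrays and 4.87 to 5.16 on M0 arrays.

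Metabolic genes were grouped by pathway. In the arginine, polyamine and proline list, 5 of 22 tested genes were higher and 1 lower, with a median log2 difference of 0.052. With arrays centred, 8 were higher and 0 lower. With specific probe sets, which gave no value for some genes, 2 were higher. Slc7a2, which imports arginine, was at 10.04, 10.01 and 10.34 in M2 cells, against 6.58, 6.10 and 6.24 in M0 cells (log2 difference 3.83, SE 0.16, adjusted p = 6.32e-10), and spermidine synthase, Srm (0.70, SE 0.13), rose. Ornithine decarboxylase, Odc1 (-0.13, adjusted p = 0.219), and the nitric oxide synthase Nos2 (-0.095, adjusted p = 0.461), which competes for arginine, were not called. Slc7a2 was higher still in M1 cells, at 10.84 ± 0.33 (M2 minus M1 -0.70, adjusted p = 0.00117), and Arg1 was lower there, at 6.47 ± 1.98 (M2 minus M1 3.90, adjusted p = 0.00011). Of the amino acid transporters, 5 of 24 rose and 8 fell, with the aromatic amino acid carrier Slc16a10 (-1.03, SE 0.066, averaged -0.66) and the branched-chain carrier Slc43a2 (-0.91, SE 0.063) lowest.

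**Figure D4:**
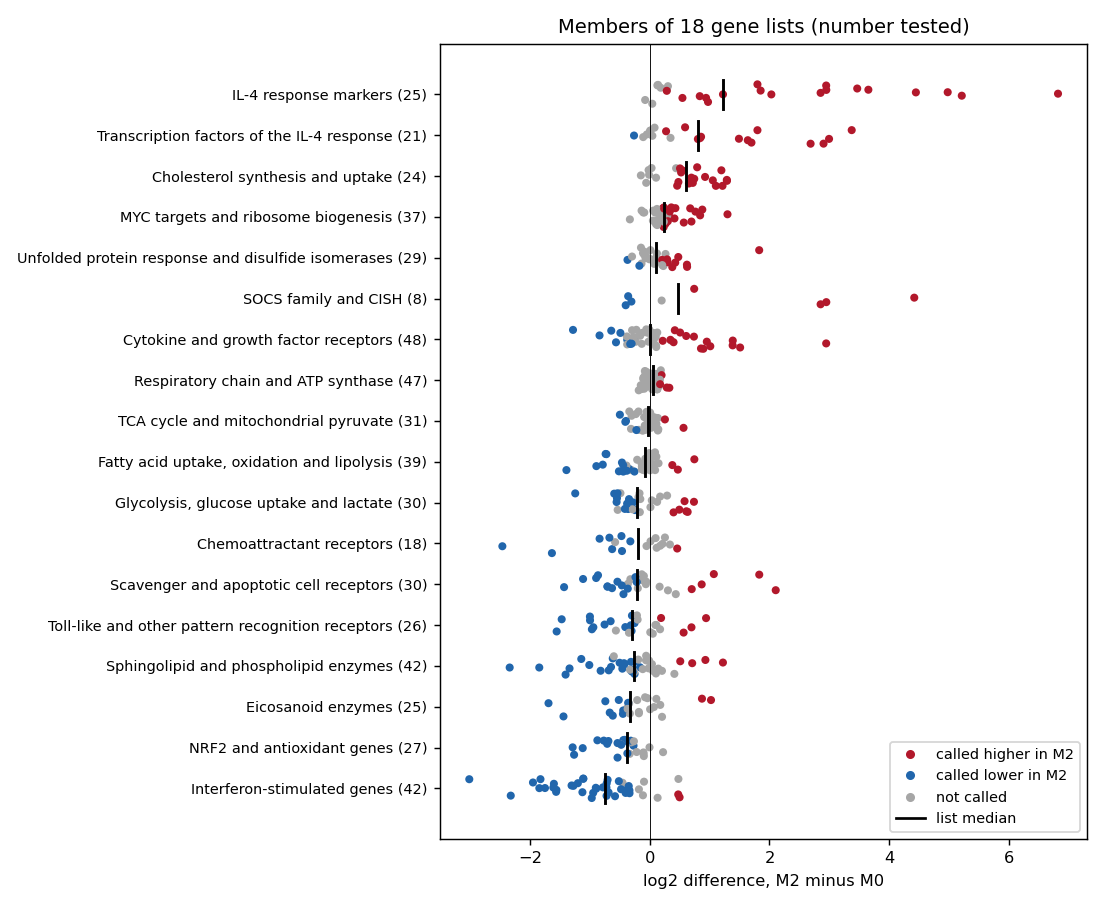
Log2 difference of M2 minus M0 for each tested member of 18 gene lists, with called members in red (higher) and blue (lower), uncalled members in grey and a black bar at the list median. Interferon-stimulated genes and NRF2 genes lie mostly to the left and cholesterol synthesis genes to the right, while respiratory chain genes lie close to 0.

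Cholesterol synthesis genes rose together: 17 of 24 tested genes were higher and 0 lower by limma (0 at an unadjusted p under 0.05), with a median of 0.60. Mvd, which makes isopentenyl diphosphate, was at 8.04, 8.17 and 8.07 in M2 cells, against 7.04, 6.83 and 6.54 in M0 cells (log2 difference 1.29, SE 0.14, adjusted p = 1.21e-05). The sterol demethylase Cyp51 (1.29, SE 0.11), Idi1 (1.22, SE 0.11), squalene synthase, Fdft1 (1.20, SE 0.16, averaged 0.50), and squalene epoxidase, Sqle (1.10, SE 0.16), rose beside it. The letters TCACNCCAC, a form of the sterol response element that SREBP factors bind, were found in 1 of 16 windows (6.25%) of 12 of the risen genes and in 1.03% of the windows of all genes tested. That window belongs to HMG-CoA synthase, Hmgcs1, which was higher (0.93, SE 0.088).
Hmgcs1 (chr13:119690189-119690247, plus strand): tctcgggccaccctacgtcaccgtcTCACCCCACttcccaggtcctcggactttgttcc

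Targets of LXR, a sterol-sensing receptor, included 2 clear falls. Abca1, the LXR target that loads cholesterol onto apolipoproteins, was at 10.45, 10.41 and 10.55 in M2 cells, against 12.03, 12.20 and 12.19 in M0 cells (log2 difference -1.67, SE 0.16, adjusted p = 3.03e-06), and all 3 of its probe sets fell. Mylip, the LXR target that degrades the LDL receptor, was at 8.94, 8.88 and 9.09 in M2 cells, against 10.62, 10.68 and 10.68 in M0 cells (log2 difference -1.69, SE 0.13, adjusted p = 2.79e-07). Neither had overlapping groups. In M1 cells Abca1 was at 10.50 ± 0.44, not called different from M2 cells (M2 minus M1 -0.03, adjusted p = 0.883). Of the LXR and fatty acid synthesis list, 5 of 26 tested genes were higher and 9 lower, with a median log2 difference of -0.14, and 2 or 3 were higher without M2 replicate 2, M2 replicate 3 or M0 replicate 1. Cyp27a1 (-1.09, SE 0.11, averaged -0.52), which makes an oxysterol, and Acss2 (-1.31, SE 0.15, averaged -0.69, specific -0.85), which activates acetate, fell, and Ch25h (1.54, SE 0.24), which makes 25-hydroxycholesterol, and fatty acid synthase, Fasn (0.94, SE 0.11), rose. Apoe was not called (0.0032, adjusted p = 0.979). The desaturase Scd2 was called higher (0.98, SE 0.32), a call lost without any 1 of 5 arrays (adjusted p 7.47e-05 to 0.0961 over the alternatives).

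Genes of fatty acid uptake, oxidation and lipolysis, held in 1 list, were not raised as a group. In that list 3 of 39 tested genes were higher and 12 lower, with a median log2 difference of -0.085. Whether the oxidation genes alone differed as a group was not tested. Fabp4, a fatty acid carrier of fat cells and macrophages, was at 9.69, 9.96 and 10.10 in M2 cells, against 11.31, 11.25 and 11.36 in M0 cells (log2 difference -1.39, SE 0.19, adjusted p = 8.88e-05, specific -0.92). Acsl3 (-0.89, SE 0.13), Fabp3 (-0.78, SE 0.14, averaged -0.32) and Acox3 (-0.73, SE 0.10, averaged -0.49) fell too. The ketone-using enzyme Oxct1 (0.75, SE 0.066) and Acat1 (0.47, SE 0.08) were higher, and Cpt1a, which admits fatty acids to mitochondria, was not called (-0.073, adjusted p = 0.672). Mgll was called lower (-0.72, SE 0.20, averaged -0.35) while its gene-specific probe sets by suffix gave 0.232 in the opposite direction, and its call was lost without M2 replicate 2 or M0 replicate 3.

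Respiratory chain genes differed little, with 4 of 47 higher and 0 lower by limma (2 at an unadjusted p under 0.05) and all differences between -0.18 and 0.33. Cytochrome c, Cycs (0.33, SE 0.094), led them, and its call ended without M2 replicate 2 or M0 replicate 1. With arrays centred, 15 were higher. In the TCA cycle and mitochondrial pyruvate list, 2 of 31 tested genes were higher and 4 lower, with a median log2 difference of -0.032, with citrate synthase, Cs (0.086, adjusted p = 0.233), and fumarase, Fh1 (0.055, adjusted p = 0.709), not called. The balance of that list turned to 7 higher and 3 lower with arrays centred and to 5 higher and 3 lower with repeated quantile normalization. The pyruvate dehydrogenase phosphatase Pdp1 (-0.50, SE 0.075) and glutamate dehydrogenase, Glud1 (-0.41, SE 0.054), fell. Ppargc1b, the coactivator PGC-1β of mitochondrial genes, was at 9.17, 9.16 and 9.03 in M2 cells, against 7.45, 7.53 and 7.47 in M0 cells (log2 difference 1.64, SE 0.088, adjusted p = 9.66e-09), above M0 on every M2 array.

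Of the glucose-handling genes, 6 of 30 tested genes were higher and 11 lower, with a median log2 difference of -0.21. With arrays centred, 7 were higher and 8 lower, and 6 or 7 were lower without M0 replicate 2, without M2 replicate 1 or with specific probe sets. Pfkfb3, which makes the main activator of glycolysis, was at 6.61, 6.73 and 6.84 in M2 cells, against 8.12, 7.91 and 7.88 in M0 cells (log2 difference -1.24, SE 0.11, adjusted p = 1.36e-06, averaged -0.73). Hexokinase 1, Hk1 (-0.55, SE 0.10), triose phosphate isomerase, Tpi1 (-0.55, SE 0.092), and the monocarboxylate carrier Slc16a7 (-0.59, SE 0.07) fell as well. The glucose transporters Slc2a1 (0.61, SE 0.10) and Slc2a6 (0.74, SE 0.10) and the platelet-type phosphofructokinase Pfkp (0.58, SE 0.12) rose. In M1 cells Pfkfb3 was at 10.91 ± 0.15 (M2 minus M1 -4.18, adjusted p = 4.86e-13) and Slc2a1 at 11.29 ± 0.19 (M2 minus M1 -2.18, adjusted p = 1.55e-10). In the pentose phosphate list, where Prps1 was the only member to change by at least 2-fold, Pgd (-0.58, SE 0.10) and Taldo1 (-0.33, SE 0.084) fell.

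**Figure D5:**
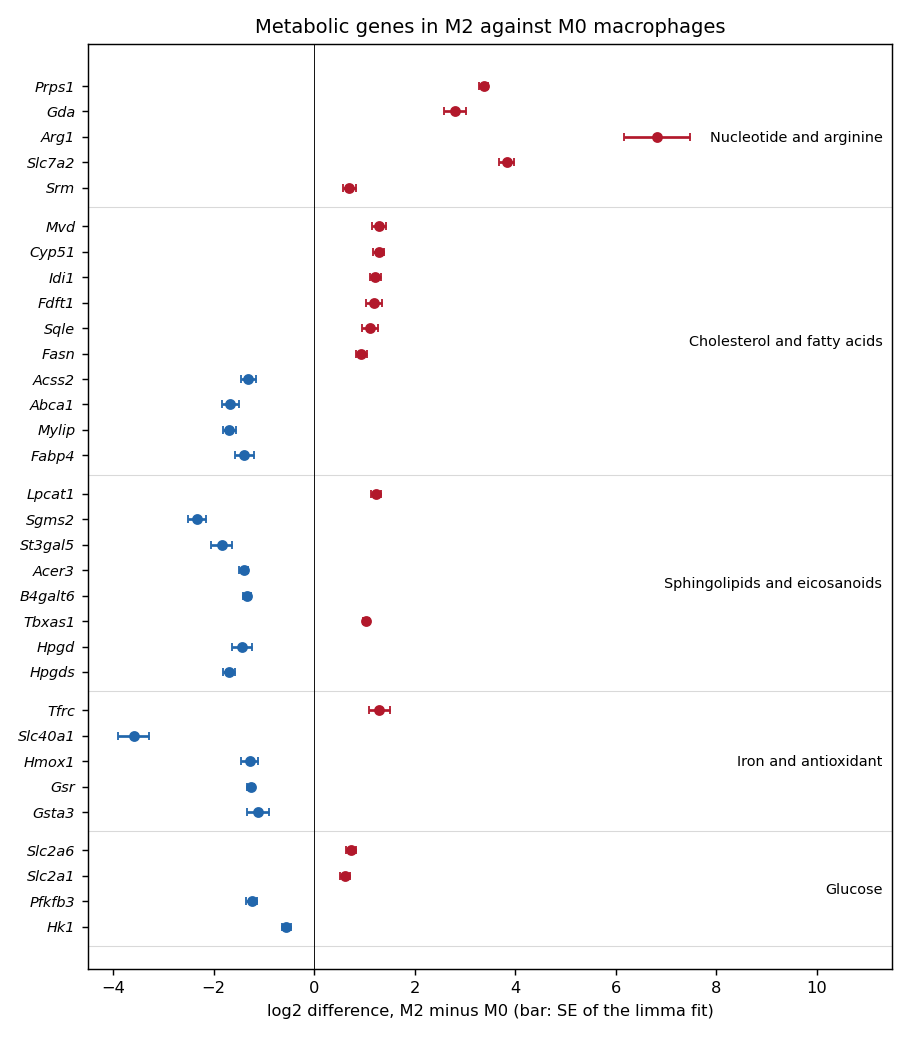
Log2 difference of M2 minus M0, with the SE of the limma fit as bars, for 32 called metabolic genes in 5 groups, higher ones in red and lower ones in blue. Arg1, Slc7a2, Prps1 and Gda lie farthest to the right and Slc40a1 farthest to the left, and cholesterol synthesis enzymes lie opposite to Abca1 and Mylip.

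Sphingolipid and phospholipid enzymes were mostly lower where they changed: 4 of 42 tested genes were higher and 21 lower, with a median log2 difference of -0.25. Sgms2, a sphingomyelin synthase of the plasma membrane, was at 4.72, 4.93 and 5.03 in M2 cells, against 7.25, 7.20 and 7.25 in M0 cells (log2 difference -2.34, SE 0.18, adjusted p = 2.88e-07, averaged -1.23). St3gal5, which starts ganglioside synthesis by making GM3, was at 7.61, 7.53 and 7.60 in M2 cells, against 9.44, 9.47 and 9.35 in M0 cells (log2 difference -1.84, SE 0.20, adjusted p = 1.12e-05). The groups of both were far apart. The ceramidase Acer3 (-1.40, SE 0.092) and the lactosylceramide synthase B4galt6 (-1.34, SE 0.072) fell, and Lpcat1 (1.22, SE 0.10), which remodels phosphatidylcholine, rose. In M1 cells Sgms2 was at 5.72 ± 0.47 (M2 minus M1 -0.82, adjusted p = 0.000913) and St3gal5 at 11.19 ± 0.62 (M2 minus M1 -3.61, adjusted p = 1.09e-09).

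Among eicosanoid enzymes, 2 of 25 tested genes were higher and 9 lower, with a median log2 difference of -0.33. Hpgds, which makes prostaglandin D2, was at 8.84, 9.23 and 9.15 in M2 cells, against 10.53, 10.82 and 10.93 in M0 cells (log2 difference -1.69, SE 0.12, adjusted p = 1.24e-07), and thromboxane synthase, Tbxas1, at 10.68, 10.70 and 10.65 in M2 cells, against 9.63, 9.67 and 9.66 in M0 cells (log2 difference 1.02, SE 0.058, adjusted p = 1.72e-08). Neither had overlapping groups, and the directions were opposite. Cyclooxygenase 2, Ptgs2 (0.87, SE 0.17, averaged 0.53), rose. Hpgd, which inactivates prostaglandins, fell (-1.44, SE 0.19, averaged -0.76), but its gene-specific probe set by suffix differed by -0.087 and was not called.

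Iron handling held the largest fall of the comparison. Slc40a1, ferroportin, the exporter that releases iron from macrophages, was at 8.48, 8.31 and 8.63 in M2 cells, against 12.12, 11.91 and 12.16 in M0 cells (log2 difference -3.59, SE 0.30, adjusted p = 7.34e-07). Its M2 values lay far under its M0 values, and both of its probe sets fell. The transferrin receptor Tfrc, which brings iron in, was at 11.58, 12.06 and 11.75 in M2 cells, against 10.13, 10.88 and 10.48 in M0 cells (log2 difference 1.30, SE 0.20, adjusted p = 0.000209). Heme oxygenase, Hmox1 (-1.29, SE 0.17), Spic (-0.995, SE 0.19), a factor of iron-recycling macrophages, and the mitochondrial iron importer Slc25a37 (-0.98, SE 0.077) fell. In the iron list 4 of 27 rose and 9 fell. Ferroportin was at 8.77 ± 0.91 in M1 cells and was not called different from M2 cells (M2 minus M1 -0.30, adjusted p = 0.397 by limma). Its M1 arrays were widely spread, so that comparison was imprecise.

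Antioxidant genes, many of them targets of NRF2, were lower in 16 of 27 cases and higher in 0 by limma (1 at an unadjusted p under 0.05), with a median of -0.37. Glutathione reductase, Gsr, was at 7.72, 7.88 and 7.82 in M2 cells, against 9.01, 9.002 and 9.18 in M0 cells (log2 difference -1.26, SE 0.066, adjusted p = 8.07e-09). The glutathione transferase Gsta3 (-1.12, SE 0.21, averaged -0.69), catalase, Cat (-0.87, SE 0.14), and the quinone reductase Nqo1 (-0.77, SE 0.16) fell with it. Of the NADPH oxidase genes, 4 of 7 were lower and 1 higher, with Ncf1 (-0.50, SE 0.10) changing most. After centring, the antioxidant count was 15 lower and the oxidase count 2 lower.

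Some protein folding and ribosome genes rose. The disulfide isomerase Pdia4 was at 10.10, 9.99 and 10.20 in M2 cells, against 8.15, 8.47 and 8.18 in M0 cells (log2 difference 1.83, SE 0.10, adjusted p = 9.66e-09, averaged 1.01), far above the rest of its list, in which 9 of 29 rose and 2 fell. With arrays centred, 14 of that list rose and 0 fell, and with repeated quantile normalization 13 and 0. With the mean of all probe sets, 5 of that list fell. MYC targets and ribosome biogenesis genes were higher in 20 of 37 cases and lower in 0 by limma (0 at an unadjusted p under 0.05), with a median of 0.24, led by Tfrc, Nolc1 (0.88, SE 0.12, averaged 0.55) and Nop16 (0.76, SE 0.10). Without M2 replicate 2 or M0 replicate 1, 13 of them rose. In the lysosome list 8 of 44 were higher and 12 lower, which turned to 11 higher and 7 lower with arrays centred and to 10 and 9 with repeated quantile normalization, while 7 were lower without M2 replicate 1 or M0 replicate 3. The higher ones were led by subunits of the proton pump, with Atp6v0a1 at 9.56, 9.62 and 9.51 in M2 cells, against 7.73, 8.05 and 8.18 in M0 cells (log2 difference 1.58, SE 0.11, adjusted p = 1.12e-07), and the lower ones by the protease Ctsh (-0.52, SE 0.068). Of the cell division genes, 0 of 44 were called higher by limma (1 at an unadjusted p under 0.05) and 4 lower, the largest fall being that of the replication licensing factor Cdc6 (-1.51, SE 0.29). Of them, 17 were lower without M0 replicate 1, 2 without M2 replicate 1 or M0 replicate 2, and 8 with the replicate number as a block.

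Some genes that mark macrophages and their lineage changed too. Besides Mertk, Fcgr1 and Cd14, the transcription factor Maf fell, at 11.56, 11.58 and 11.06 in M2 cells, against 12.53, 12.52 and 12.37 in M0 cells (log2 difference -1.07, SE 0.15, adjusted p = 7.08e-05), and Cebpa rose, at 10.46, 10.20 and 10.31 in M2 cells, against 9.50, 9.38 and 9.15 in M0 cells (log2 difference 0.98, SE 0.14, adjusted p = 0.0001). Neither had overlapping groups. Further falls outside the lists were those of Cd93 (-1.75, SE 0.18), a receptor of myeloid and endothelial cells, the clock-controlled factor Dbp (-1.78, SE 0.11) and the cofilin phosphatase Ssh2 (-1.85, SE 0.14).

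The spread between M2 arrays was small for most genes, with a median SD of 0.087 over 3 arrays against 0.094 in M0 cells. An SD over 0.5 was found for 47 genes in M2 cells and 170 in M0 cells. Among called genes the matrix-degrading enzyme Mmp13 varied widely, at 8.31, 8.32 and 9.24 in M2 cells, against 7.25, 7.29 and 7.62 in M0 cells (log2 difference 1.24, SE 0.24, adjusted p = 0.00136). Its replicate 3 stood above the others in both groups. Ncapg2, a condensin subunit, was at 8.67, 8.57 and 7.72 in M2 cells, against 10.78, 10.55 and 9.40 in M0 cells (log2 difference -1.92, SE 0.38, adjusted p = 0.00162), with replicate 3 lowest in both groups. Mamdc2 (-1.32, SE 0.37) and Ablim1 (1.21, SE 0.36, averaged 0.66) also varied between M2 arrays, and each lost its call without some single arrays.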

How the data were processed

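Total RNA of 15 samples was read on 15 one-colour arrays, and the authors deposited 1 log2 value per probe set and array. Per the submitters' processing notes the method was RMA, with no version stated there. RMA evens out probe intensities between arrays, so a shift of most genes one way could be hidden. Array medians over the genes tested still ran from 6.73 to 7.15. Sample titles gave the group and the replicate number.

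Of 45101 probe sets, 64 were controls, 34945 named 1 gene in the platform annotation, 932 several and 9160 none, and probe sets of several genes or none are unnamed here. Symbols were updated through RefSeq for 34741 of the 34945. Each of 18193 genes was read by whichever of its probe sets had the highest mean of the 15 arrays. A gene was tested where 3 or more arrays put it over their 40th percentile, which kept 13703 genes and left out 4490. limma (lmFit, eBayes) estimated 5 group means from the 15 arrays, with 10 residual degrees of freedom and a prior of 3.86, and Benjamini-Hochberg adjustment ran over all genes tested. For 81 of 6217 genes with several tested probe sets, some were called higher and others lower.

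The members of 50 gene lists (1304 genes, 1133 tested) and the rules were chosen with earlier results of these data known. Named genes were all tested members of the receptor and SOCS lists; the 25 largest rises and 25 largest falls without overlap; up to 5 called rises and 5 called falls of each list, or the 2 smallest p where under 2 were called; the 10 largest gained and lost genes; and the 6 called genes most variable between M2 arrays. Clone names were left out. Fcgr2b, Ccl17, Ccl22, Cd163, Il10, Il1rn, Odc1, Nos2, Csf1r, Adgre1, Lyz2, Cd68, Stat3, Hif1a, Cpt1a, Apoe, Cd36, Tlr4, Fh1, Cs, Kdm6b, Ppargc1b and Hmgcs1 were chosen after their values were seen where that rule did not name them.

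Replicate numbers recur in both groups without a stated meaning. After the group means were taken off, same-numbered M2 and M0 arrays correlated over genes at r of 0.334, 0.424 and 0.232, above the limit of 0.1 taken as pairing, and those of differently numbered arrays with r of -0.295 to -0.03. Upstream windows were the 250 bases before each start in RefSeq's table of GRCm38.p6 (32851 windows of 27025 genes). Alternatives were other filters, other probe sets, other scalings, other variance models, the 6 arrays alone, the replicate block and each array left out. On simulated M2 against M0 data of 13703 genes, 50 were changed per size. There 36% were recovered at 1.25-fold, 82% at 1.5-fold and 98% at 2-fold, with 4 false of 161 calls. Far fewer genes were changed there than the 31% called in the real comparison, so these shares do not carry over to it. R 4.3.3, limma 3.58.1, Python 3.11.15, pandas 2.3.3 and matplotlib 3.10.9 were used.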

Additional observations from a re-analysis of the deposited data

How the results depend on the processing

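Genes at least 2-fold higher numbered 158 to 241 over the alternatives and those at least 2-fold lower 163 to 240. Higher genes numbered 1374 to 1535 and lower genes 1937 to 2289 with 1 M2 or M0 array left out. Without M1 replicate 2, an alternative chosen after seeing the data, there were 2097 and 2987, and with arrays centred on the median 2801 were higher. Repeated quantile normalization gave 2093 higher and 1974 lower, so that 51.5% of calls were higher. With the replicate number as a block, which pairs the samples, 1914 were higher and 2732 lower, and of the named genes only Rpia lost its call. Gained genes numbered 9 above the 60th percentile and 10 when crossing the 30th, and lost genes 2, 2 and, when crossing the 50th, 12. Leaving out single arrays gave 16 to 18 gained and 5 to 8 lost genes, the 8 without M2 replicate 3. The cause was not tested. Over 18 alternatives, 308 of 386 named genes kept direction and side of the threshold wherever they had a value, and 70 called ones lost a call at least once. With the mean of all probe sets Dusp8 differed by -0.004, Ikbkb by 0.049 and Pmm2 by -0.048. With probe sets specific by suffix Laptm5 differed by 0.115, Mgll by 0.232, Pmm2 by -0.346 and Trem2 by 0.033, all opposite to the values from the probe set with the highest mean. Of 100 counts over gene lists, 48 moved by over 1.5 times under at least 1 alternative. Counts with specific probe sets cover fewer genes, as 337 of the 386 named genes had a value there. Csf1r, Tlr4 and Cs were called with arrays centred, Cd163 without M0 replicate 2, Stat3 with specific probe sets and Ptpn6 without M1 replicate 2. Genes near or under the filter level have the least signal over background, and the share of small changes missed in these data was not tested.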

Other observations

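The 6 arrays of M2 cells that had also received an agent were outside the comparison, and their values for genes gained in M2 cells are given without a test. Rnase2a averaged 7.90 with nutlin-3a and 7.99 with 10058F4, against 6.81 in M2 cells without an agent. Scn3a averaged 5.46 and 5.56 in the same order, against 5.83, and Cdh1 5.78 and 5.55, against 6.58. Irf4 averaged 5.85 with nutlin-3a and 4.83 with 10058F4, against 7.33 in M2 cells without an agent. Its mean in M0 cells was 3.96.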
